A study of Mus musculus with 12 samples.

Results

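The genes described here differed between K14ΔNLef1 and WT mice in the same direction in bulge stem cells and in the other basal keratinocytes of back skin. ΔNLef1 is Lef1, a transcription factor of the Wnt pathway, without the part that binds β-catenin. A gene was included when its 3 K14ΔNLef1 arrays all lay above, or all below, the 3 WT arrays in CD34+ITGA6+ cells and again, on the same side, in ITGA6+ cells. This held for 230 of the 5712 genes tested (4.03%), of 11287 measured, with 75 higher and 155 lower in K14ΔNLef1. Of the 230 genes, 158 were also called for the genotype main effect, which sets the 6 K14ΔNLef1 arrays against the 6 WT arrays with the sorted population as covariate (limma, Benjamini-Hochberg adjusted p under 0.05). Separation and the main effect were computed from the same arrays, so one is no independent support for the other. Tested in each population by itself, with 4 group means fitted, 36 of the 230 genes were called in both populations and 100 in neither. Of the 158 genes, 31 were called in neither population by itself.

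The data set holds 12 exon arrays, 3 for each of 4 groups. They are WT CD34+ITGA6+, K14ΔNLef1 CD34+ITGA6+, WT ITGA6+ and K14ΔNLef1 ITGA6+ keratinocytes, all flow-sorted from back skin of 9.5-week-old females, an age at which the study describes hair follicles as resting and the skin phenotype as not yet fully apparent. In K14ΔNLef1 mice the keratin 14 promoter, active in basal keratinocytes, drives Lef1 truncated at its amino terminus, and WT mice lack this transgene. The study asked which early changes in gene expression go with ΔNLef1, and the replicates are labelled as biological, without word on whether both populations of one number came from the same mouse, so p-values measure the spread between these arrays.

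Lef1 and its TCF relatives bind DNA through a high mobility group domain and recruit β-catenin with the amino terminus, which turns Wnt signals into transcription, while TLE/Groucho corepressors bind elsewhere on the protein. Without the amino terminus Lef1 can still bind its sites and can repress, but cannot take up β-catenin. Bulge stem cells, marked by CD34, renew the hair follicle, and integrin α6 (ITGA6) anchors basal keratinocytes to the basement membrane.

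Because TCF/LEF factors recognise a short core, the promoters of 4 called genes that hold it are printed for the reader to see where it lies. The core searched was CTTTGNN, with A or T in the place of each N, on both strands with overlapping matches counted, in RefSeq promoters (GRCm38.p6) from 250 bases before to 50 bases after each start. Capitals mark the matches. Dnah8 (chr17:30626686-30626985, + strand) held 3 matches, Exph5 (chr9:53301420-53301719, + strand) 2, and Sema3d (chr5:12382916-12383215, + strand) and Sema3c (chr5:17574566-17574865, + strand) 1 each, and they were chosen after the values were seen, to show 1 gene higher and 3 lower in K14ΔNLef1.
Dnah8: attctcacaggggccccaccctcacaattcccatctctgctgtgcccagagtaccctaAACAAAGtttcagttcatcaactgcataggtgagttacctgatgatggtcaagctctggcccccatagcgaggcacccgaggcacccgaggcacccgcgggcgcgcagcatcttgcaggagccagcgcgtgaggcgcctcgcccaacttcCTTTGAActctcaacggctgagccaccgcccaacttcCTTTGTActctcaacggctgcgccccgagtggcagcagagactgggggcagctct
Exph5: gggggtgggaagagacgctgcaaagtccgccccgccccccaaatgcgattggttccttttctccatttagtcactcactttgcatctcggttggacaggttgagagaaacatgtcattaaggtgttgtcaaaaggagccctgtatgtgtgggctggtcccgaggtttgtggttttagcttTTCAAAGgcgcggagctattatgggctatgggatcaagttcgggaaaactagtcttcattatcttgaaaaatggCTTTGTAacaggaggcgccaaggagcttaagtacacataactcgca
Sema3d: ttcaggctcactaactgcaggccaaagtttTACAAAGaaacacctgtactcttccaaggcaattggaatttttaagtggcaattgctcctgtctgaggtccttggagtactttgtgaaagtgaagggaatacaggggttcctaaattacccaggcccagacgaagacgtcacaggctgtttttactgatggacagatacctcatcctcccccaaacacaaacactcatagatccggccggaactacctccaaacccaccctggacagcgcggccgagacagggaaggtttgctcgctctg
Sema3c: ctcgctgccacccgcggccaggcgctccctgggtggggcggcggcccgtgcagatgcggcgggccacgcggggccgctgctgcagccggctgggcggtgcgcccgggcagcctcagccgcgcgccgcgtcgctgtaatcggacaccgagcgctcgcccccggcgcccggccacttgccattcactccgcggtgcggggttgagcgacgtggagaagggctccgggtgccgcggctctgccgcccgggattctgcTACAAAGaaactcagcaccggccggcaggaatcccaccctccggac

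A promoter was in the table for 53 of the 75 higher genes and 126 of the 155 lower genes. A core was found in 12 of 71 promoters of the higher genes (16.9%) and in 20 of 179 of the lower genes (11.2%). Among the promoters of all genes tested the share was 11.6%, and among the 32851 promoters in the table it was 16.9%. These windows are short and a match is a description of letters, with no binding measured here.

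Lef1 itself came first among the higher genes. The transgene encodes a truncated Lef1, so the signal of this gene includes transgene RNA. It is no measure of endogenous Lef1, whose expression the study describes as decreased in these mice. It measured 6.30, 7.15 and 6.09 (log2 intensity) on the WT CD34+ITGA6+ arrays and 12.65, 12.49 and 12.60 on the K14ΔNLef1 CD34+ITGA6+ arrays. In ITGA6+ cells the values were 6.24, 6.40 and 5.99 in WT and 12.71, 12.55 and 12.68 in K14ΔNLef1. All WT values lay below the array medians of 7.35 to 7.63, all K14ΔNLef1 values lay far above, and the level under the transgene was nearly equal in both populations. The main effect was 6.25 ± 0.17 (log2, ± standard error from the 12 arrays, adjusted p = 9.43e-12). The effect in CD34+ITGA6+ cells minus that in ITGA6+ cells was -0.37 with a 95% confidence interval of -1.09 to 0.36. Probe sets of Lef1 differed in how much they moved, and 11 of 13 were higher in both populations.

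The sorted markers were not called for genotype. Cd34 measured 11.12 to 12 on the CD34+ITGA6+ arrays and 5.17 to 5.59 on the ITGA6+ arrays, with a main genotype effect of -0.22 ± 0.14 (adjusted p = 0.505). Within CD34+ITGA6+ cells the Cd34 values did not overlap, with 11.69 to 12 in WT and 11.12 to 11.65 in K14ΔNLef1, whereas they overlapped in ITGA6+ cells. Itga6 measured 10.45 to 11.07 and 11.48 to 11.79, with a main effect of 0.12 ± 0.14 (adjusted p = 0.80). These Cd34 values go with the sample titles, which were followed, although another label field names the populations the other way round. All 6 bulge markers and all 5 basal markers were tested and none was called for genotype. The summed linear intensity of the bulge markers was 14550 to 16350 in WT and 13000 to 15180 in K14ΔNLef1 CD34+ITGA6+ cells. In ITGA6+ cells it was 7833 to 8238 against 7099 to 7479, without overlap. Krt15, in this sum, measured 12.84 to 12.89 in WT and 12.67 to 12.78 in K14ΔNLef1 ITGA6+ cells. The basal sums overlapped between the genotypes in both populations.

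Over all 5712 genes tested the main effect was called for 236 (4.13%), of which 92 were higher (1.61%) and 144 lower (2.52%) in K14ΔNLef1. The 75 higher separated genes had main effects from 0.18 to 6.25, the latter for Lef1, with a median of 0.90. The 155 lower ones ran from -3.16 to -0.17 with a median of -0.74, while the median over all genes tested was -0.03. At least 2-fold changes in both populations were seen in 41 separated genes, 19 higher and 22 lower. The remaining 78 called genes were not separated in both populations, and in none of them did the effects have opposite signs. Another 42 genes were separated in opposite directions in the 2 populations. A difference in a sorted bulk sample cannot tell fewer cells of a type from less RNA per cell.

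**Figure D1:**
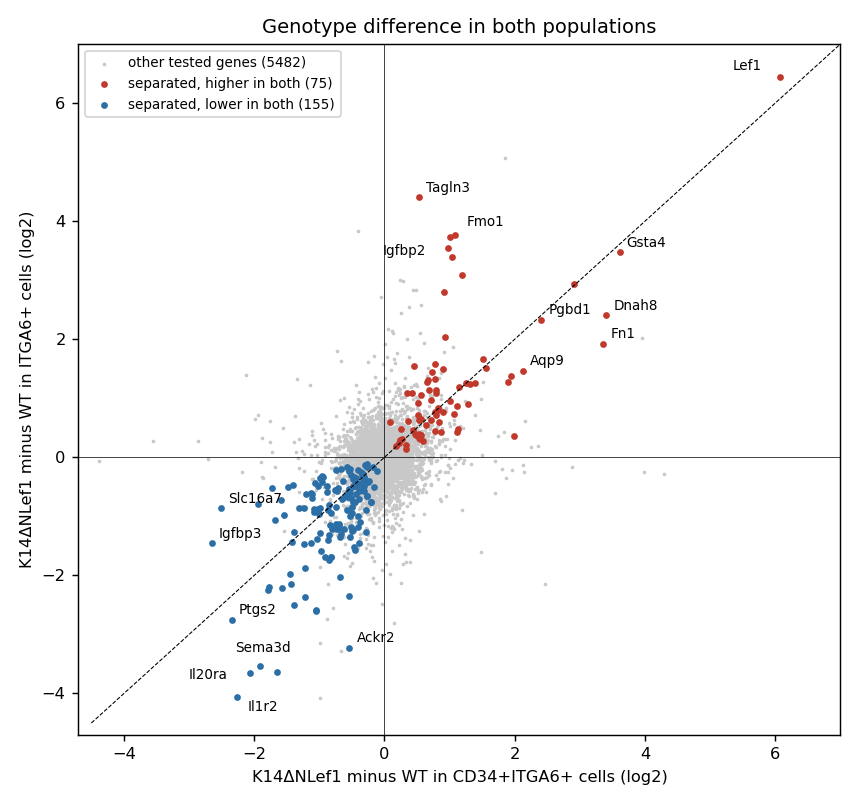
Genotype difference (K14ΔNLef1 minus WT, log2) of each tested gene in CD34+ITGA6+ cells on the horizontal axis and in ITGA6+ cells on the vertical axis. Red points are the 75 genes separated higher and blue points the 155 genes separated lower in both populations, grey points the other genes tested, and the dashed line marks equal differences. Lef1 lies at the upper right with 6.07 and 6.44, Tagln3 and Ackr2 lie far from the dashed line, and most separated genes lie between -2 and 2 on both axes.

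At the edge of the rule the gap between the genotypes was small. Setbp1, Mier1, Tagln3, Clec2d and Nap1l4 were just inside with gaps of 0.0003 to 0.002 (log2) between the nearest arrays of the 2 genotypes in the tighter population. Krt15, Pofut1, Shoc2, Cdkn3 and Hapln2 were just outside with overlaps of -0.0001 to -0.0039. Cdkn3, a cell cycle phosphatase, was among the called genes that this rule left out (main effect 1.09, adjusted p = 0.0125). On the inner side, only Tagln3 was called.

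Enzymes that conjugate and reduce foreign or oxidised compounds were among the genes that rose most after Lef1. Gsta4, a glutathione S-transferase that conjugates products of lipid peroxidation, measured 5.78, 6.13 and 5.58 in WT and 9.94, 8.58 and 9.80 in K14ΔNLef1 CD34+ITGA6+ cells. In ITGA6+ cells it measured 7.21, 6.64 and 6.03 in WT and 10.93, 8.46 and 10.90 in K14ΔNLef1. The lowest K14ΔNLef1 array of each population, replicate 2, was still more than 1 log2 unit above every WT array. The main effect of Gsta4 was 3.54 ± 0.39 (adjusted p = 1.39e-04), and no fold is given here or below for a gene whose lower group lay under the array medians. The difference of its effects between the populations was 0.14 with an interval of -1.55 to 1.83.

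Akr1b8, an aldo-keto reductase that reduces aldehydes, measured 6.90, 6.73 and 7.0 in WT and 8.68, 8.51 and 9.16 in K14ΔNLef1 CD34+ITGA6+ cells. Its ITGA6+ values were 6.19, 7.10 and 7.33 in WT and 7.96, 8.0 and 8.49 in K14ΔNLef1. The genotypes were apart in both populations, by a wider margin in CD34+ITGA6+ cells, and the main effect was 1.59 ± 0.21 (adjusted p = 5.55e-04). Fmo1, a flavin-containing monooxygenase, also rose (2.43 ± 0.38, adjusted p = 0.00249), from 6.24 to 6.74 in WT to 7.32 to 8.04 in K14ΔNLef1 CD34+ITGA6+ cells and from 6.51 to 6.85 to 10.22 to 10.56 in ITGA6+ cells. Ugt1a5, which belongs to a family of glucuronosyltransferases that share exons and is therefore uncertain as a single gene, was represented by 1 probe set and had a main effect of 2.92 ± 0.34 (adjusted p = 2.30e-04). Of 21 tested genes on a list of detoxification enzymes, 3 were called higher (Gsta4, Fmo1, Akr1b8) and 1 lower (Cyp2s1, a cytochrome P450). The list median was 0.03, close to the median over all genes. Over all genes tested 1.61% were called higher and 2.52% lower, the shares to set beside this and the later list counts. Cyp2s1 (-0.65 ± 0.16, adjusted p = 0.034) lost its call without any 1 of 9 arrays and without the filter, where its adjusted p rose to 0.0862 at most. Cbr2, a carbonyl reductase outside this list named after its values were seen, was called and separated lower (-1.37 ± 0.22, adjusted p = 0.00243).

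Several higher genes encode structural or enzymatic proteins of other kinds. Dnah8, an axonemal dynein heavy chain, measured 5.72, 5.27 and 5.67 in WT and 9.28, 8.58 and 9.01 in K14ΔNLef1 CD34+ITGA6+ cells. On ITGA6+ arrays it measured 6.29, 5.75 and 5.89 in WT and 8.58, 7.77 and 8.79 in K14ΔNLef1. Every WT array lay under the array medians and every K14ΔNLef1 array above them. The main effect was 2.90 ± 0.23 (adjusted p = 6.97e-06), and all 99 probe sets of the gene were higher in both populations. The promoter of Dnah8 is the one printed above with 3 core matches.

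Pgbd1, a gene derived from a piggyBac transposase, measured 6.26, 5.46 and 6.33 in WT against 8.42, 8.23 and 8.60 in K14ΔNLef1 CD34+ITGA6+ cells. The ITGA6+ values of this gene were 6.21, 5.41 and 5.27 in WT and 7.75, 8.20 and 7.92 in K14ΔNLef1. The effects in the populations were nearly equal, 2.40 ± 0.28 and 2.33 ± 0.28, and the main effect was 2.37 ± 0.19 (adjusted p = 6.97e-06). Fn1, which encodes the matrix glycoprotein fibronectin, measured 6.35, 6.08 and 6.18 in WT and 10.19, 8.77 and 9.72 in K14ΔNLef1 CD34+ITGA6+ cells. In ITGA6+ cells Fn1 measured 7.72, 7.03 and 6.77 in WT and 8.81, 9.61 and 8.87 in K14ΔNLef1. The genotypes were apart in both populations, with effects of 3.36 ± 0.34 and 1.92 ± 0.34 and a main effect of 2.64 ± 0.30 (adjusted p = 1.83e-04), and its 49 probe sets were all higher in both. The effects differed by 1.43 (interval 0.40 to 2.46), which was not called after adjustment over all genes (adjusted p = 0.247).

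Masp1, a serine protease of the lectin pathway of complement, lay at 6.18 to 6.49 on all 6 WT arrays and at 7.22 to 8.73 on the K14ΔNLef1 arrays. Its main effect was 1.59 ± 0.20 (adjusted p = 3.90e-04). Tanc2, a scaffold protein, was among the few strong genes that lay above the array medians in every sample, with 8.27 to 9.80 in WT and 9.53 to 10.59 in K14ΔNLef1. It rose 2.40-fold (1.26 ± 0.21, adjusted p = 0.0035), and its effects in the populations were almost the same, 1.25 ± 0.30 and 1.27 ± 0.30. Rgs2, which damps signalling through G proteins, had an effect of 1.18 ± 0.39 in CD34+ITGA6+ cells and of 3.09 ± 0.39 in ITGA6+ cells (main effect 2.14 ± 0.37, adjusted p = 0.00408). Egln3, a prolyl hydroxylase that marks hypoxia-inducible factors for degradation, had a main effect of 1.53 ± 0.29 (adjusted p = 0.00762). For Aqp9, a channel for water and glycerol, it was 1.79 ± 0.30 (adjusted p = 0.00352), and for Them5, a mitochondrial acyl-CoA thioesterase, 1.66 ± 0.25 (adjusted p = 0.00187). All 3 genes were higher on every K14ΔNLef1 array than on the WT arrays of the same population.

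**Figure D2:**
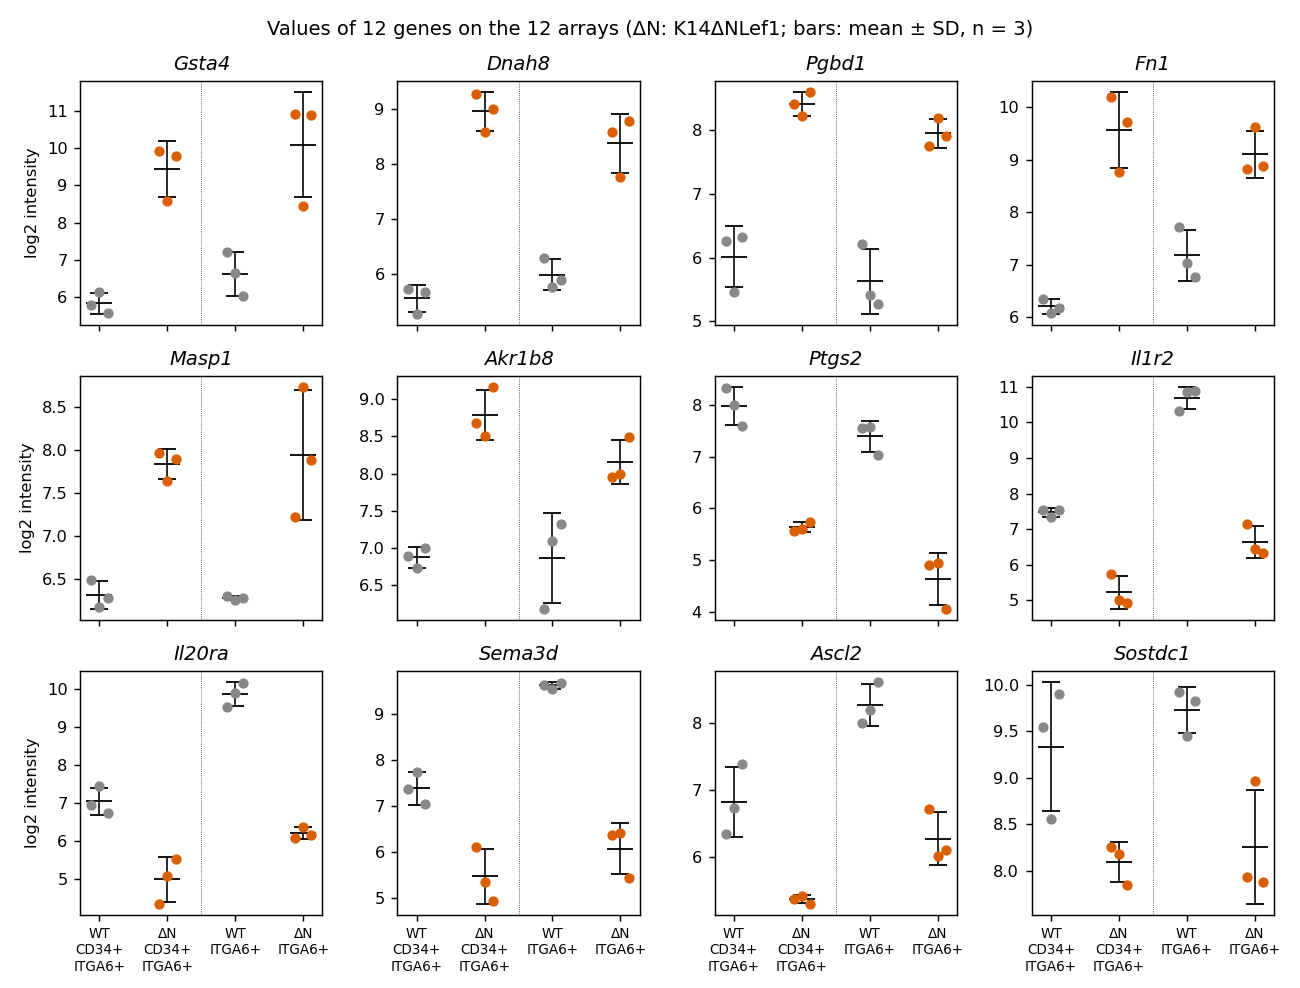
Log2 intensity of 12 genes on each of the 12 arrays, with WT in grey and K14ΔNLef1 (ΔN) in orange, and the mean ± SD of 3 arrays as bars. The dotted line parts CD34+ITGA6+ from ITGA6+ cells, and in every panel the orange and grey points of a population do not overlap. Il1r2, Il20ra and Sema3d start from a higher WT level in ITGA6+ cells than in CD34+ITGA6+ cells.

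Some genes of cell division rose. Of 14 tested genes on a list for mitosis, 6 were called higher (Cdk1, Ccna2, Ube2c, Tpx2, Bub1b, Kif23) and 0 lower. Over all genes tested 1.61% were called higher and 2.52% lower. The list median was 0.73 against -0.03 over all genes. Cdk1, the cyclin-dependent kinase of mitotic entry, measured 6.27, 6.39 and 6.92 in WT and 7.83, 7.28 and 7.83 in K14ΔNLef1 CD34+ITGA6+ cells. On the ITGA6+ arrays the values were 7.67, 8.28 and 8.12 in WT and 9.01, 8.85 and 8.80 in K14ΔNLef1. Levels were higher in ITGA6+ cells in either genotype, and the genotypes were apart in both. The main effect of Cdk1 was 0.99 ± 0.16 (adjusted p = 0.00305).

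Ube2c, a ubiquitin-conjugating enzyme of the anaphase-promoting complex that was measured by 1 probe set, rose by 1.19 ± 0.19 (adjusted p = 0.00295). Kif23, a kinesin of the cytokinetic midzone, rose by 0.72 ± 0.15 (adjusted p = 0.0147). Tpx2, a spindle assembly factor, rose by 1.05 ± 0.24 (adjusted p = 0.0237), but lost its call without replicate 3 of K14ΔNLef1 CD34+ITGA6+ cells or without replicate 1 or 3 of K14ΔNLef1 ITGA6+ cells, where its adjusted p was 0.0627 at most. Ccna2 (0.63 ± 0.17, adjusted p = 0.0467) was not separated in both populations and kept its call under 9 of 21 other settings. Grouped after the values were seen, 11 called and separated genes act in the cell cycle, the spindle or cytokinesis (Cdk1, Ube2c, Cdc20, Tpx2, Kif4, Kif23, Incenp, Ckap2, Shcbp1, Dbf4, Cdca7). Their main effects ran from 0.59 to 1.32, and 10 of the 11 were also called higher in ITGA6+ than in CD34+ITGA6+ cells. That was so for 18.7% of all genes tested and for 29 of the 75 higher genes. Only genes that rose were put in the group of 11, so the sign of its range was set by the choice. Clasp2, a microtubule-binding protein of the spindle named after its values were seen, was called and separated lower (-1.14 ± 0.15, adjusted p = 6.16e-04). Of 13 tested genes of DNA replication 0 were called, with a list median of 0.02, and 0 of 9 mismatch repair genes were called, also with a median of 0.02.

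Receptors for cytokines led the genes that fell by size, with Il1r2 and Il20ra first. Il1r2, a decoy receptor that takes up interleukin 1 without signalling, measured 7.55, 7.33 and 7.55 in WT and 5.74, 4.99 and 4.92 in K14ΔNLef1 CD34+ITGA6+ cells. ITGA6+ cells gave 10.33, 10.85 and 10.88 in WT and 7.14, 6.44 and 6.32 in K14ΔNLef1. All K14ΔNLef1 arrays lay below the array medians, and the WT level was higher in ITGA6+ cells. The main effect was -3.16 ± 0.30 (adjusted p = 3.86e-05), and the fall was larger in ITGA6+ cells by 1.79 (interval 0.98 to 2.60, adjusted p of the difference = 0.0259).

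Il20ra, a subunit of the receptors for interleukins of the IL-20 group, measured 6.95, 7.44 and 6.75 in WT and 4.35, 5.09 and 5.53 in K14ΔNLef1 CD34+ITGA6+ cells. Values in ITGA6+ cells were 9.54, 9.91 and 10.17 in WT and 6.09, 6.38 and 6.16 in K14ΔNLef1. The pattern over the 4 groups resembled that of Il1r2, with a main effect of -2.86 ± 0.29 (adjusted p = 6.91e-05). Il12rb2, a subunit of the interleukin 12 receptor, measured 7.37, 6.29 and 5.63 in WT and 4.52, 5.07 and 4.77 in K14ΔNLef1 CD34+ITGA6+ cells. In ITGA6+ cells Il12rb2 measured 9.55, 9.94 and 9.60 in WT and 6.16, 6.01 and 5.99 in K14ΔNLef1. The WT arrays of CD34+ITGA6+ cells were widely spread, whereas those of ITGA6+ cells were tight, and the main effect was -2.64 ± 0.35 (adjusted p = 5.55e-04).

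Il1r1, the signalling receptor for interleukin 1, measured 8.50, 7.98 and 8.57 in WT and 7.22, 7.12 and 7.68 in K14ΔNLef1 CD34+ITGA6+ cells. Its ITGA6+ values were 9.60, 9.15 and 9.51 in WT and 8.61, 8.52 and 8.23 in K14ΔNLef1. Its effects in the populations were similar, -1.01 ± 0.22 and -0.97 ± 0.22, with a main effect of -0.99 ± 0.15 (adjusted p = 0.00228). In the RefSeq gene order Il1r1 and Il1r2 are neighbours on chromosome 1. Of 25 tested interleukin, TNF and chemokine ligands and receptors, 1 was called higher (Il22ra1) and 7 lower (Il1r1, Il1r2, Il12rb2, Il20ra, Il33, Ackr2, Cxcl12). The shares over all genes tested were 1.61% higher and 2.52% lower, and the list median was -0.10. Il33, an alarmin cytokine, had a main effect of -1.81 ± 0.33 (adjusted p = 0.00563) but was not separated in CD34+ITGA6+ cells, where WT lay at 6.08 to 6.68 and K14ΔNLef1 at 4.96 to 6.22. Ackr2, an atypical receptor that scavenges chemokines, measured 6.92 to 7.53 in WT and 6.47 to 6.82 in K14ΔNLef1 CD34+ITGA6+ cells against 9.36 to 9.86 and 6.0 to 7.12 in ITGA6+ cells (main effect -1.88 ± 0.40, adjusted p = 0.0147).

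Lipid mediators of inflammation were represented among the lower genes as well. Ptgs2, the inducible cyclooxygenase that begins prostaglandin synthesis, measured 8.33, 8.0 and 7.59 in WT and 5.56, 5.59 and 5.74 in K14ΔNLef1 CD34+ITGA6+ cells. In ITGA6+ cells it measured 7.55, 7.58 and 7.04 in WT and 4.91, 4.95 and 4.06 in K14ΔNLef1. It had the largest smaller-of-both fall of all separated genes, -2.34 ± 0.26 and -2.75 ± 0.26, with a main effect of -2.55 ± 0.19 (adjusted p = 4.24e-06), and all 13 probe sets were lower in both populations. Ltb4r1, a receptor for leukotriene B4, fell 2.12-fold (-1.08 ± 0.20, adjusted p = 0.00563) and was named after its values were seen. Of 10 tested genes of prostaglandin synthesis and transport, 1 was called higher (Pla2g4c, a phospholipase A2) and 3 lower (Ptgs2, the prostaglandin transporter Slco2a1 and the phospholipase Pla2g4a). The list median was -0.33, and 1.61% of all genes tested were called higher and 2.52% lower. Slco2a1 (-1.09 ± 0.23, adjusted p = 0.0129) and Pla2g4a (-1.04 ± 0.22, adjusted p = 0.0153) were not separated in both populations. Pla2g4c had an effect of 1.01 ± 0.26 in CD34+ITGA6+ and of 3.73 ± 0.26 in ITGA6+ keratinocytes.

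Sema3d and Sema3c, guidance ligands of the semaphorin family that signal with plexins, were called lower. Sema3d measured 7.36, 7.73 and 7.03 in WT and 6.10, 5.35 and 4.94 in K14ΔNLef1 CD34+ITGA6+ cells. The ITGA6+ values of this gene were 9.63, 9.53 and 9.67 in WT and 6.37, 6.40 and 5.44 in K14ΔNLef1. All K14ΔNLef1 arrays lay below the array medians, as did some of the WT CD34+ITGA6+ arrays, and the main effect was -2.72 ± 0.30 (adjusted p = 1.57e-04). Sema3c measured 9.91, 9.06 and 9.96 in WT and 8.68, 8.58 and 8.0 in K14ΔNLef1 CD34+ITGA6+ cells. In ITGA6+ cells Sema3c measured 10.35, 10.16 and 10.52 in WT and 8.53, 8.57 and 8.30 in K14ΔNLef1. It stayed above the array medians on every array and fell 2.93-fold (-1.55 ± 0.19, adjusted p = 4.03e-04). Plxna2, a plexin, fell as well (-0.99 ± 0.21, adjusted p = 0.0147), while Sema3f (-0.33 ± 0.11, adjusted p = 0.121) and Sema5a (-0.54 ± 0.15, adjusted p = 0.0613) were separated but not called. This group of 5 was put together after the values were seen.

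Among Wnt-related genes the numbers were small and the directions mixed. Sostdc1, a secreted antagonist of Wnt and BMP signalling, measured 9.54, 8.56 and 9.90 in WT and 8.26, 8.18 and 7.85 in K14ΔNLef1 CD34+ITGA6+ cells. On ITGA6+ arrays it measured 9.92, 9.45 and 9.82 in WT and 7.93, 8.96 and 7.88 in K14ΔNLef1. Replicate 2 was the lowest WT array in each population and came within 0.5 of a K14ΔNLef1 array, and the fall was 2.56-fold (-1.35 ± 0.24, adjusted p = 0.00409). Ascl2, a basic helix-loop-helix factor known as a Wnt target of intestinal stem cells, measured 6.35, 6.73 and 7.38 in WT and 5.38, 5.43 and 5.31 in K14ΔNLef1 CD34+ITGA6+ cells. On the ITGA6+ arrays the values were 7.99, 8.19 and 8.60 in WT and 6.72, 6.01 and 6.10 in K14ΔNLef1. Only the WT ITGA6+ arrays lay clearly above the array medians, and the main effect was -1.72 ± 0.20 (adjusted p = 1.84e-04).

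Of 14 tested Wnt/β-catenin targets, 1 was called higher (Cd44) and 2 lower (Jag1 and Ascl2), with a list median of 0.01. Cd44, the hyaluronan receptor, measured 10.21, 10.33 and 10.63 in WT and 11.48, 11.43 and 11.60 in K14ΔNLef1 CD34+ITGA6+ cells, and 10.65, 10.53 and 10.65 against 11.10, 11.08 and 10.94 in ITGA6+ cells. The shift was small but the arrays of a group lay close together, and Cd44 rose 1.71-fold (0.77 ± 0.14, adjusted p = 0.00682). Jag1, a Notch ligand, fell 1.88-fold (-0.91 ± 0.17, adjusted p = 0.00749) and was the 1 called gene among 7 tested genes of the Notch pathway, whose median was 0.12. Of 10 tested TCF/LEF factors and corepressors, Lef1 and Ctnnb1, the β-catenin gene, were called higher and 0 lower, with a median of 0.01. The Lef1 signal includes the transgene. Ctnnb1 (0.55 ± 0.14, adjusted p = 0.0374) was not separated in both populations and lost its call under 12 of 21 other settings. Of 19 tested Wnt ligands, receptors and inhibitors, 1 was called higher (Wif1) and 2 lower (Wnt16 and Sostdc1), with a median of -0.02, and of these Sostdc1 was the one separated in both populations. Wif1, a secreted Wnt inhibitor, rose by 2.25 ± 0.24 in the CD34+ITGA6+ population, while its effect in ITGA6+ cells was 0.18 ± 0.24.

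Growth factor and adhesion genes gave a few called members each. Igfbp3, which binds insulin-like growth factors, measured 11.16, 9.44 and 10.56 in WT and 8.17, 7.35 and 7.68 in K14ΔNLef1 CD34+ITGA6+ cells. ITGA6+ cells gave 10.28, 10.78 and 10.34 in WT and 9.40, 9.09 and 8.53 in K14ΔNLef1. The WT CD34+ITGA6+ arrays spread the most, yet no K14ΔNLef1 array of either population reached a WT array of the same population, and the fall was 4.15-fold (-2.05 ± 0.30, adjusted p = 0.0015). Its relative Igfbp2 rose, with effects of 0.97 ± 0.24 and 3.55 ± 0.24 in the populations (main effect 2.26 ± 0.38, adjusted p = 0.00352), and Igf2r, which clears IGF2, rose by 0.61 ± 0.12 (adjusted p = 0.0109). These were the 3 called genes of 8 tested in the IGF axis, whose median was 0.09, where 4.13% of all genes tested were called. Of 13 tested basal keratinocyte genes, Cdh3, which encodes P-cadherin, rose 1.91-fold (0.94 ± 0.19, adjusted p = 0.00951) and Itga2, a collagen-binding integrin chain, fell 2.0-fold (-1.0 ± 0.17, adjusted p = 0.00369), with a median of -0.10. Itga2 lay at 8.97 to 9.62 in WT and at 8.03 to 8.91 in K14ΔNLef1 over both populations.

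Of 21 tested genes of the extracellular matrix and its proteases, 1 was called higher (Fn1) and 3 lower (Col6a1, Col12a1 and Mmp2), with a median of -0.01. Col6a1, a collagen VI chain, fell by 1.13 ± 0.23 on the log2 scale (adjusted p = 0.0106), and Col12a1 (-0.67 ± 0.17, adjusted p = 0.0406) lost its call under 13 of 21 other settings. The other lists had at most 3 called genes in either direction. Klf4 and Jun of 18 tested immediate early and stress genes were called lower, and Jun, an AP-1 subunit, fell 1.66-fold (-0.73 ± 0.13, adjusted p = 0.00419) with 9.33 to 9.76 on all 6 WT arrays and 8.46 to 9.03 on the K14ΔNLef1 arrays. The median of that list was -0.25. Atp6v1c2, which encodes part of a proton pump, was the 1 called gene among 7 tested for the isthmus and sebaceous duct, and was higher (1.08 ± 0.19, adjusted p = 0.00408), with a list median of -0.08. Of 21 tested BMP and TGF-β genes Id4 was called lower and 0 higher (median -0.16), and of 22 bulge stem cell genes Wif1 was called higher and Pdlim3 lower (median -0.19), neither of them separated in both populations. The same was true of Fdft1 of 12 cholesterol synthesis genes (median 0.08), Dsc1 of 9 suprabasal genes (median 0.11) and Tiam1 among 13 actin genes (median -0.13), whose other called gene, Tagln3, was separated. Of 6 clade B serpins 1 was called higher and 3 lower (median -0.62), and 0 of them were separated in both populations. No gene was called among 10 sebaceous, 6 EGF receptor, 6 retinoid and 9 housekeeping genes, with medians of 0.09, -0.18, 0.08 and 0.

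**Figure D3:**
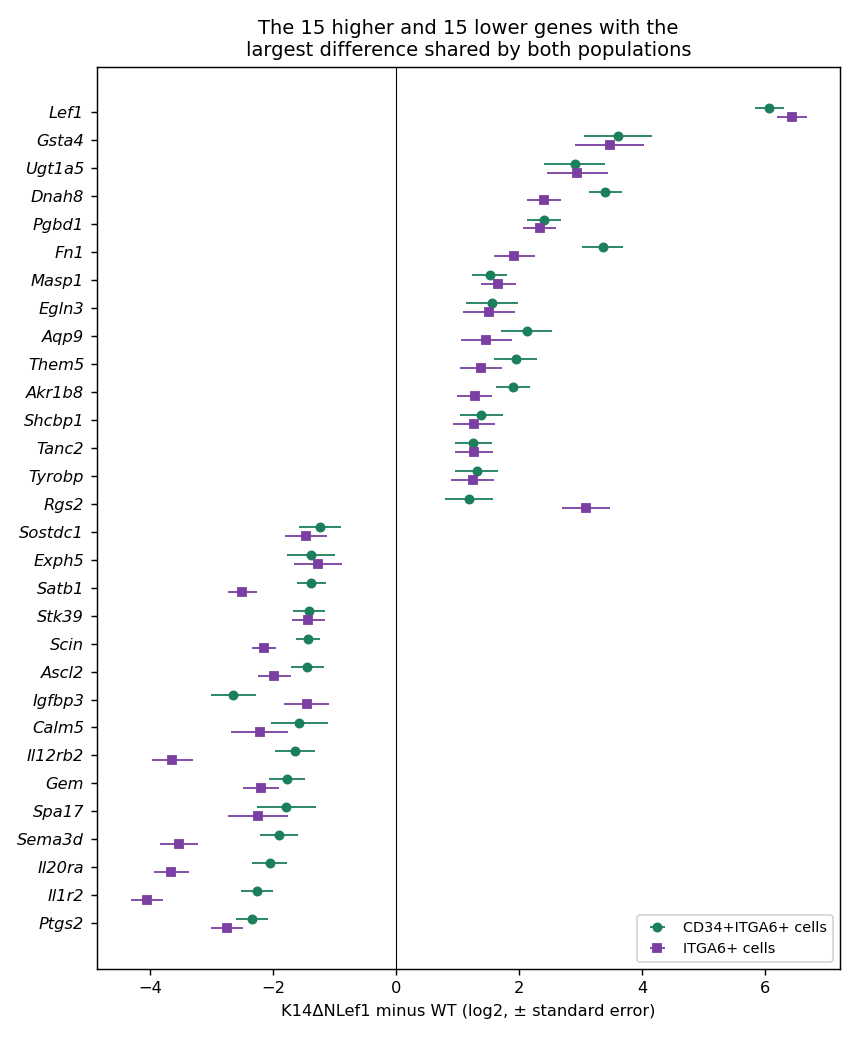
Genotype difference (log2, ± standard error from the fit with 4 group means) in CD34+ITGA6+ cells (green circles) and ITGA6+ cells (purple squares) for the 15 higher and 15 lower called genes with the largest smaller-of-both difference. Every symbol of the upper 15 genes lies to the right of 0 and every symbol of the lower 15 to its left, as the choice of genes requires. Stk39, Pgbd1 and Tanc2 have nearly equal differences in both populations, and Il1r2, Il20ra, Sema3d, Il12rb2 and Rgs2 have larger ones in ITGA6+ cells.

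Scel, Exph5 and Rab27a were further lower genes and form no list of their own. Scel, which encodes sciellin, a precursor of the cornified envelope, measured 10.90, 10.90 and 10.97 in WT and 9.80, 9.48 and 9.80 in K14ΔNLef1 CD34+ITGA6+ cells. In ITGA6+ cells it measured 11.14, 11.21 and 11.38 in WT and 8.80, 9.15 and 8.69 in K14ΔNLef1. The arrays of each group lay close together and well above the medians, and Scel fell 3.47-fold (-1.80 ± 0.19, adjusted p = 1.25e-04) with all 29 probe sets lower in both populations. Exph5, a Rab27 effector in vesicle transport, measured 8.02, 7.27 and 8.07 in WT and 6.12, 6.86 and 6.23 in K14ΔNLef1 CD34+ITGA6+ cells. Values in ITGA6+ cells were 8.72, 9.12 and 9.56 in WT and 8.51, 8.24 and 6.84 in K14ΔNLef1. The genotypes came within about 0.2 of each other in ITGA6+ cells, and the main effect was -1.33 ± 0.27 (adjusted p = 0.0106). Rab27a itself, named after its value was seen, was also separated and called lower (-0.65 ± 0.15, adjusted p = 0.0279).

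Calm5, a calmodulin-like gene, had a main effect of -1.90 ± 0.33 (adjusted p = 0.00447), and Scin, a calcium-dependent actin-severing protein, of -1.79 ± 0.16 (adjusted p = 2.72e-05). Both were at least 1 log2 unit higher in WT ITGA6+ than in WT CD34+ITGA6+ cells on every array. Satb1, a chromatin organiser of epidermal genes, had a main effect of -1.94 ± 0.22 (adjusted p = 1.83e-04). Stk39, a kinase that regulates chloride cotransporters, had nearly equal effects in the populations, -1.42 ± 0.26 and -1.43 ± 0.26 (main effect -1.42 ± 0.18, adjusted p = 4.48e-04). For Gem, a small GTP-binding protein that inhibits calcium channels, the main effect was -1.99 ± 0.21 (adjusted p = 1.24e-04), and for Spa17, a sperm surface protein, it was -2.02 ± 0.34 (adjusted p = 0.00364). None of these 6 genes overlapped between the genotypes within a population.

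Markers of differentiating keratinocytes were followed beside these genes. Of the 7 markers 4 were measured and 2 tested, and 0 were called (median 0.04). Their summed linear intensity was 1916 to 4177 in WT and 3681 to 4436 in K14ΔNLef1 CD34+ITGA6+ cells, but 7673 to 7900 in WT and 5268 to 5732 in K14ΔNLef1 ITGA6+ cells. The sum thus overlapped in the first population and was lower in K14ΔNLef1 in the second, and its part in the falls of Scel and Calm5 was not tested.

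Tyrobp, an adaptor of myeloid and natural killer cell receptors, belonged to the 15 leading higher genes and is also a myeloid marker. Tyrobp measured 7.38, 6.17 and 6.6 in WT and 7.40, 8.42 and 8.25 in K14ΔNLef1 CD34+ITGA6+ cells, and 5.93, 5.75 and 6.12 against 6.74, 7.83 and 6.95 in ITGA6+ cells. Its highest WT and lowest K14ΔNLef1 array nearly met in CD34+ITGA6+ cells, and the main effect was 1.28 ± 0.24 (adjusted p = 0.00727). Of 13 Langerhans cell and macrophage markers 12 were measured and 4 tested, with Tyrobp the one called. H2-Aa (0.92, adjusted p = 0.138) and H2-Eb1 (1.23, adjusted p = 0.108), both MHC class II chains, were not called. Cd207, Cd52, Ptprc, Csf1r, Itgax, Fcer1g and Lyz2 were above the array median on no array. Epcam, the 1 marker of this list above the medians on every array (9.37 to 10.46), was not called (0.14, adjusted p = 0.827). The summed intensity of the 12 was 1415 to 2344 in WT and 2093 to 3241 in K14ΔNLef1 CD34+ITGA6+ cells. In ITGA6+ cells it was 1476 to 1621 against 1782 to 2468. This sum includes Tyrobp and Epcam, so it is no separate measure to set beside Tyrobp. Whether myeloid cells had a part in the rise of Tyrobp was not tested.

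Of the T cell markers, 7 were measured and 1 was tested, Thy1, which was separated and called lower (-0.88 ± 0.19, adjusted p = 0.0172) but not when probe sets were averaged by the mean (adjusted p = 0.0912). Cd3d, Cd3e, Cd3g, Ptprc, Cd7 and Cd2 were above the median on no array. The summed intensity of the T cell markers was 446.7 to 820.3 in WT and 493.3 to 656.5 in K14ΔNLef1 CD34+ITGA6+ cells. In ITGA6+ cells it was 646 to 769.5 against 489.9 to 642.5. Thy1 is itself in this sum, so the sum is no separate measure to set beside it. Whether T cells had a part in the fall of Thy1 was not tested. Of the melanocyte, fibroblast, sebocyte and hair shaft markers 1, 2, 2 and 3 were tested and 0 were called, and of the endothelial and Merkel cell markers 0 were tested. The summed intensity of 7 measured sebocyte markers was 696.5 to 1145 in WT and 591.6 to 1093 in K14ΔNLef1 CD34+ITGA6+ cells. In ITGA6+ cells it was 1449 to 1532 against 1662 to 2182, where the genotypes did not overlap. Of these 7 markers 5 (Scd3, Elovl3, Mc5r, Pparg, Cidea) were above the array median on no array. Scd1, also in this sum, measured 9.81 to 9.83 in WT and 10.02 to 10.43 in K14ΔNLef1 ITGA6+ cells. It was not called (adjusted p = 0.706). For 9 measured melanocyte markers the sum was 1689 to 1971 in WT and 1360 to 1909 in K14ΔNLef1 CD34+ITGA6+ cells. In ITGA6+ cells it was 811.3 to 843.2 against 737.2 to 784.7, again without overlap. Of these 9 markers 7 were above the array median on no array, and Mitf, the 1 tested, was not called (adjusted p = 0.65). The fibroblast, endothelial, Merkel cell and hair shaft sums overlapped between the genotypes in both populations. The part of these sums in the results was not tested.

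Sizes of the effects were compared between the populations. Among the 230 genes the effect was larger in ITGA6+ cells for 137, that is 40 of the 75 higher and 97 of the 155 lower genes. The difference between the effects was called for 15 of the 230 genes, against 88 of all 5712 genes tested (1.54%), and in 13 of the 15 the larger effect was in ITGA6+ cells. Since genes had to be separated in both populations, this count covers differences in size alone. Neither lean toward ITGA6+ cells was counted over all genes tested, so it is not shown to be particular to the 230. Of all genes tested, 22.6% were separated in ITGA6+ and 12.7% in CD34+ITGA6+ cells. Tagln3, a calponin-related protein, showed the widest difference, at 5.51 to 6.05 in WT and 6.06 to 6.73 in K14ΔNLef1 CD34+ITGA6+ cells but 5.48 to 6.06 against 9.52 to 10.48 in ITGA6+ cells. It lost its call for the main effect without replicate 2 or 3 of WT ITGA6+ cells (adjusted p = 0.0526 at most). Slc14a1, a urea transporter, and Slc16a7, a monocarboxylate transporter, were the 2 genes with the larger effect in CD34+ITGA6+ cells. Slc14a1 measured 7.62, 7.38 and 7.81 in WT and 10.02, 9.45 and 9.32 in K14ΔNLef1 CD34+ITGA6+ cells, but 5.65, 5.73 and 5.59 against 5.91, 6.10 and 6.03 in ITGA6+ cells, where all values were under the array medians.

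The sorted population itself was called for 124 of the 230 genes (53.9%). In these, 45 were higher in CD34+ITGA6+ and 79 higher in ITGA6+ cells, against 7.21% and 18.7% of all genes tested. The higher genes split into 6 and 29 and the lower genes into 39 and 50. Cd200, a surface glycoprotein of bulge cells named after its values were seen, had the largest population difference of the lower genes, toward CD34+ITGA6+ cells. It measured 11.43, 11.35 and 11.54 in WT and 11.20, 10.50 and 10.56 in K14ΔNLef1 CD34+ITGA6+ cells, and 8.45, 7.34 and 8.60 against 5.58, 5.96 and 6.77 in ITGA6+ cells. Its population difference was 3.98 ± 0.30 (adjusted p = 3.03e-07) beside a genotype effect of -1.36 ± 0.30 (adjusted p = 0.0166).

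Fitted alone, each population gave calls that could be followed on the 6 arrays of the other, which those calls had not used. The 6 CD34+ITGA6+ arrays called 70 genes, of which 48 had the same sign in ITGA6+ cells, 34 were separated there in the same direction and 4 in the opposite one, while 22.6% of all genes tested were separated in ITGA6+ cells one way or the other. The 6 ITGA6+ arrays called 330 genes, of which 254 had the same sign in CD34+ITGA6+ cells, 112 were separated in the same direction and 7 in the opposite one, against 12.7% of all genes separated there in either direction. Of the 41 genes called lower in CD34+ITGA6+ cells alone 22 were separated lower in ITGA6+ cells, and of the 29 called higher 12 were separated higher. The direction of a call was therefore repeated in most genes, and its full separation in a minority. In all 27 genes were called in both populations fitted alone, 38.6% of the first list and 8.2% of the second, and 25 of them had the same sign. Across all 5712 genes the effects of the 2 populations had the same sign in 56.6% and a Pearson correlation of 0.37, a description across genes, which are not independent. Arrays of the 2 populations may come from the same mice, which the labels do not settle.

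Probe sets of a gene, which mostly lie in different exons, were examined singly. Of 3557 probe sets of the 230 genes, 2872 had the gene's sign in both populations (80.7%), where it was 42.9% for the probe sets of all genes tested. All probe sets went one way in 64 of the 226 genes with more than 1. Probe sets of a gene measure the same RNA, so they are no replicates of a condition. The 230 genes had been chosen on the median of these values, so a high share among them was set by that choice. Gsta4 had 7 of 7 probe sets higher in both populations, with differences of 0.61 to 5.51 in CD34+ITGA6+ and of 0.82 to 6.18 in ITGA6+ cells. Sema3d had 20 of 20 lower, with differences of -3.11 to -0.50 and of -5.16 to -0.40.

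**Figure D4:**
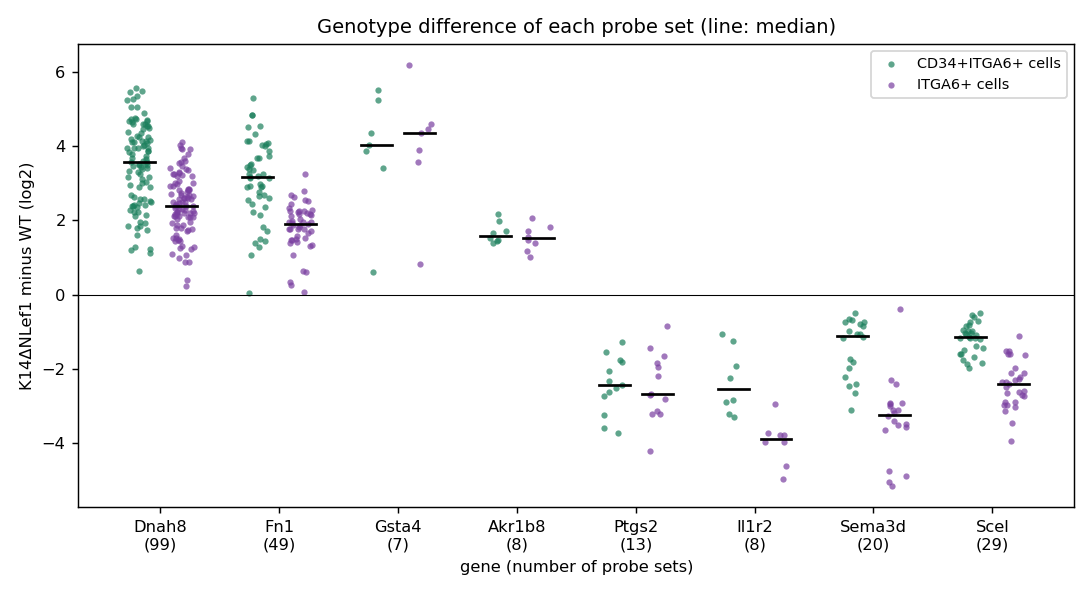
Genotype difference (K14ΔNLef1 minus WT, log2) of each probe set of 8 genes in CD34+ITGA6+ cells (green) and ITGA6+ cells (purple), with the median as a black line and the number of probe sets under each name. All points of Dnah8, Fn1, Gsta4 and Akr1b8 lie above 0 and all points of Ptgs2, Il1r2, Sema3d and Scel below it, over a wide range within a gene.

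Detection limits bear on many of these genes. Of the 230 genes 88 lay above the array median on every array. Of the 75 higher genes, 38 lay above it in fewer than 3 WT arrays, so they entered the test through K14ΔNLef1 arrays, and 51 lower genes lay above it in fewer than 3 K14ΔNLef1 arrays. Without the filter 323 genes were separated in the same direction in both populations, 93 of them not tested here.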

How the data were processed

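RNA of the sorted cells was extracted with a micro column kit, amplified and biotin-labelled, which need not keep large and small differences in proportion, and was hybridised to Affymetrix Mouse Exon 1.0 ST arrays. The authors deposited RMA-normalised intensities on a linear scale for each probe set. RMA, Affymetrix Power Tools and build mm9 are named, without versions, in the submitters' processing notes. Of 114330 probe sets 109796 (96.0%) carried 1 gene symbol, 836 several and 3698 none, and symbols were updated through RefSeq (GRCm38.p6). How these probe sets were selected is not given in the sources used.

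For each gene the value was the median log2 intensity of its probe sets (median 8 per gene, 728 genes with 1). Genes above an array's median of all probe sets in at least 3 of 12 arrays were tested (5712, leaving out 5575). Background was not measured, array medians ran from 7.35 to 7.63, arrays of a group correlated with r from 0.909 to 0.936, and precision is limited by the number of arrays. The main effect was the genotype coefficient of an additive model of population and genotype (9 residual degrees of freedom). Effects per population and their difference came from a model with 4 group means (8 residual degrees of freedom). Both used limma 3.58.1 in R 4.3.3 with empirical Bayes moderation and two-sided p-values adjusted by Benjamini-Hochberg over all genes tested, and a gene was called under 0.05. The code was tested on simulated data.

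The genes described, the lists, the tests and the rule for named genes were chosen with earlier results of these data known. Named were Lef1, Cd34 and Itga6, the 15 higher and 15 lower called and separated genes with the largest smaller-of-both effect, up to 5 called genes per list, up to 10 described genes whose effects differed between populations, and 5 genes on either side of the edge of the rule. Others are said in the text to be named after their values were seen, except Scel, Sema3c, Plxna2, Col6a1, Cdkn3 and cell type markers, named to complete a group or a count. Alternatives were the mean over probe sets, no filter or a filter 1 log2 unit stricter, 2 further scalings, other moderation, the group means model, replicate blocks and leaving out each array. Arrays with the same number did not deviate together between genotypes (r from 0.033 to 0.107 in CD34+ITGA6+ and from -0.076 to -0.053 in ITGA6+ cells), so the numbers were not used as a pairing. Unfractionated cells were not analysed here.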

Additional observations from a re-analysis of the deposited data

Results flagged for a closer look

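Of the 230 genes, 15 were picked out because the test of the difference between their genotype effects was called (limma with 4 group means, adjusted p under 0.05 over all genes tested). In what follows a difference is the effect in CD34+ITGA6+ minus that in ITGA6+ cells on the log2 scale. Among the genes that rose, Tagln3 had a difference of -3.87 (effects 0.53 and 4.40, adjusted p = 8.94e-05). The phospholipase Pla2g4c had -2.73 (1.01 and 3.73), Fmo1 -2.68 (1.09 and 3.77) and Igfbp2 -2.58 (0.97 and 3.55). Cdo1, an enzyme of cysteine breakdown, had -2.37 (1.03 and 3.39), and Pcbd1, a pterin dehydratase, had -1.88 (0.91 and 2.79). These 6 genes had a larger rise in ITGA6+ cells, and all their WT values lay under the array medians. Slc14a1 alone of the 15 rose more in CD34+ITGA6+ cells, with a difference of 1.64 (1.99 and 0.35).

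Among the genes that fell, Ackr2 had a difference of 2.69 (effects -0.54 and -3.23), Il12rb2 of 2.0 (-1.64 and -3.64) and Irf4, a transcription factor, of 1.81 (-0.55 and -2.35). Il1r2 had 1.79 (-2.26 and -4.06), Scel 1.14 (-1.23 and -2.37), Gata3, a transcription factor of epidermis and hair follicle, 1.11 (-0.46 and -1.57) and Tnxb, a tenascin, 1.04 (-0.47 and -1.51). The fall of these 7 genes was larger in ITGA6+ cells. Slc16a7 fell more in CD34+ITGA6+ cells, with a difference of -1.64 (-2.51 and -0.86). Of these 8 genes, Gata3 and Scel lay above the array medians on every array.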

How the results depend on the processing

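When a gene's value was the mean over its probe sets, 393 genes were called (203 of the 236), 148 higher and 245 lower, 240 were called and separated (122 of the 158), and the difference of effects was called for 29 separated genes. With the stricter filter, which left 2856 genes, 157 were called, 53 higher, 139 were separated and 105 were both called and separated. Leaving out 1 array at a time gave 160 to 260 called genes, 65 to 118 higher and 93 to 176 lower, and 130 to 202 called and separated. The lowest count of lower genes, 93, came without replicate 3 of WT ITGA6+ cells. The other settings kept every count within 1.5 times, and no result changed direction. Of the called and separated genes 79 (28 higher, 51 lower) were called under all 21 alternatives, and 121 without any single array.

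With the replicate number as a fixed replicate block, 223 genes were called (93 higher, 130 lower), 149 of them separated, with a difference of effects called for 14. With same-numbered arrays of a genotype as a random replicate block, as if both populations came from 1 mouse, 196 were called (75 higher, 121 lower), 145 of them separated, with 20. Each array correlated best with its own number within a genotype (r from 0.069 to 0.233), a hint from the data and not from the design.

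Of the named genes, Fdft1 and Serpinb8 lost their call under 14 of 21 alternatives, Col12a1 and Pdlim3 under 13, Ccna2 and Ctnnb1 under 12, Tiam1 and Wif1 under 11, Cyp2s1, Mmp2 and Wnt16 under 10, Klf4 under 7, Tpx2 under 3, Tagln3 under 2 and Thy1 under 1. Their highest adjusted p was 0.154, for Pdlim3. Genes that an alternative left untested, as the stricter filter did Ptgs2, were not counted as having lost a call there. The naming rule, edge genes aside, gave 74 called genes, and 36 of these were called under all 21 alternatives. For genes near or under the array medians the size of an effect is no measured fold, since background was not measured.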
